A study of Saccharomyces cerevisiae with 2 samples.

Results

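The genes of aromatic amino acid synthesis were followed in the *sdh3*Δ strain of *Saccharomyces cerevisiae*. All 10 listed genes, *ARO1*, *ARO2*, *ARO3*, *ARO4*, *ARO7* and *TRP1* to *TRP5*, were found on the array by their annotated symbol, among 5656 genes that could be named in all. The genes belong to the list by their place in the pathway and not by a threshold on measured values. The data are 2 arrays of 1 group, the *sdh3* deletion mutant, which lacks a membrane subunit of succinate dehydrogenase. By the methods, the parent was a reference strain of mating type a that carries the alleles *MAL2–8C*, *SUC2* and *URA3–52*, and uracil was added to the minimal medium for the auxotrophy. Samples were withdrawn from aerobic batch cultures on glucose when 20 ± 2 g/liter of the sugar remained, and the RNA was hybridized to Yeast Genome S98 arrays. No array of a reference strain was used here. The values below therefore describe the mutant and the closeness of its replicates, and none of them is a difference between strains.

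In yeast the carbon skeleton of phenylalanine, tyrosine and tryptophan is built from erythrose 4-phosphate and phosphoenolpyruvate through the shikimate pathway, which ends in chorismate. From there chorismate mutase leads toward phenylalanine and tyrosine, and anthranilate synthase leads toward tryptophan. Cells on minimal medium without amino acids must make all of these products. The entry step is under feedback control by the end products, and many genes of amino acid synthesis are activated by Gcn4, the transcription factor of general amino acid control.

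Each of the 10 genes was read by 1 probe set, that is, by a set of short oligonucleotides designed against its transcript. The deposited value is an intensity on a linear scale in arbitrary units. Because it depends on the probes as well as on the transcript, levels of different genes were not ranked. The ratio of replicate 2 over replicate 1 for the same probe set does not depend on the probes in this way and is given on the log2 scale. The methods state that the cultivations were repeated and that duplicate samples were collected during them, but not whether each duplicate came from its own culture, so the spread between them may be technical. With 2 arrays of 1 group no test between conditions was possible and no p-value is given. Across the 5656 named genes the median log2 ratio was -0.12 with an SD of 0.73. A value is called above background here when it exceeds the highest of 19 control probe sets for mouse and bacterial genes, which was 54.8 on replicate 1 and 92.1 on replicate 2. The probe set of *SDH3*, the deleted gene, read 22.0 and 29.3 on the arrays and was not above background on either.

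Of the 10 genes of aromatic synthesis, 9 were above background on both arrays and *ARO7* only on replicate 1. Higher values on replicate 2 were found for 5 genes and lower values for 5, and the median log2 ratio was -0.002. The ratio ran from -0.89 for *ARO3* to 1.22 for *ARO2*. *ARO2* and *TRP5* were the 2 genes that differed by 2-fold or more between the replicates, both higher on replicate 2. Among all named genes, 16.7% differed by 2-fold or more in either direction, with 4.17% higher and 12.6% lower on replicate 2. The share in either direction was 6.82% with 50 added to each intensity and 9.53% with values raised to background. Under each of these, 2 of the 10 genes were past 2-fold. Both steps act mainly on low values, and *ARO2* and *TRP5* were in the highest of 10 equal classes of mean value. In that class 26% of genes differed by 2-fold or more on the values as deposited. The other 8 genes of the list differed by less than 2-fold.

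**Figure D1:**
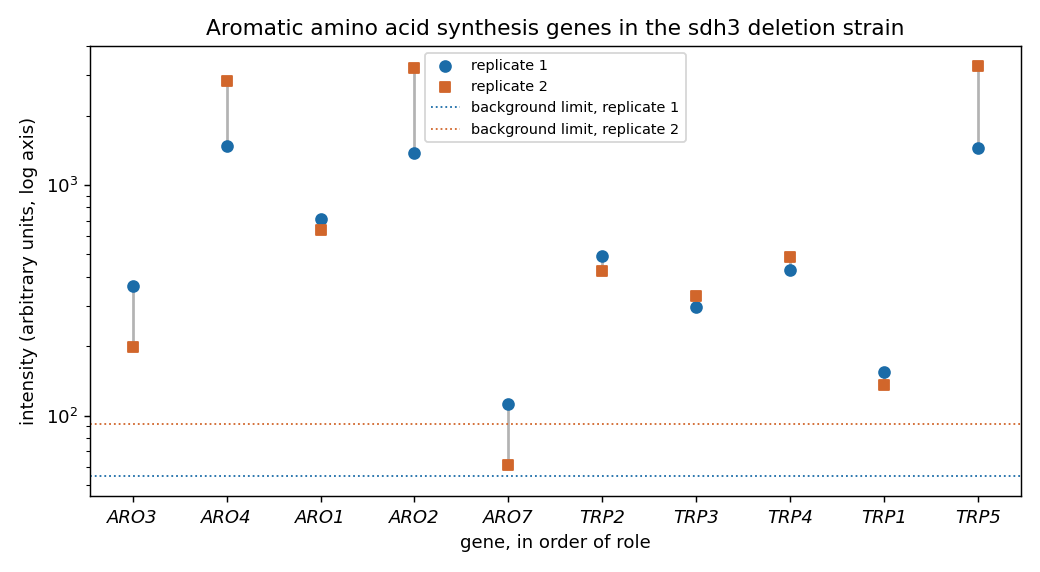
Intensity of the 10 genes of aromatic amino acid synthesis (arbitrary units, log axis) on replicate 1 (circles) and replicate 2 (squares) of the *sdh3*Δ strain, with gray lines joining the pair and dotted lines at the background limit of each array. *ARO2*, *ARO4* and *TRP5* lie at 1380 or more on both arrays and are higher on replicate 2, while *ARO7* on replicate 2 lies below the limit of 92.1.

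*ARO3* and *ARO4* encode the isoenzymes of DAHP synthase, which catalyzes the first step of the pathway. The product of *ARO3* is inhibited by phenylalanine and that of *ARO4* by tyrosine. *ARO3* had intensities of 366 on replicate 1 and 198 on replicate 2, with a mean of 282 ± 119 (SD, n = 2). *ARO4* had intensities of 1483 and 2826, with a mean of 2155 ± 950 (SD, n = 2). The isoenzyme genes thus deviated in opposite directions between replicates. The log2 ratio was -0.89 for *ARO3* and 0.93 for *ARO4*. The value of *ARO4* relative to that of *ARO3* was thus 3.53-fold larger on replicate 2 than on replicate 1. Among genes of like mean value the SD of the log2 ratio was 0.91 for the class of *ARO3* and 0.86 for that of *ARO4*. How often other pairs of genes differ as much was not examined.

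The steps from DAHP to chorismate are encoded by *ARO1*, a multifunctional enzyme that carries the middle of the shikimate pathway, and *ARO2*, chorismate synthase. *ARO1* had intensities of 710 and 636, a mean of 673 ± 52.4 (SD, n = 2) and a log2 ratio of -0.16. *ARO2* had intensities of 1380 and 3209 and a mean of 2295 ± 1293 (SD, n = 2). Its ratio of 1.22, or 2.32-fold, was the widest difference between the replicates among the 10 genes. The ratio of *ARO2* lay above those of 98.3% of all named genes, and that of *ARO1* above those of 48.1%.

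*ARO7* encodes chorismate mutase, which commits chorismate to phenylalanine and tyrosine. It had intensities of 112 on replicate 1 and 60.8 on replicate 2, with a mean of 86.5 ± 36.4 (SD, n = 2). The value of replicate 2 was not above background, so that the difference between the arrays was at least 1.22-fold with that value raised to the limit of 92.1. On the values as given the log2 ratio was -0.88.

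In the tryptophan branch the 4 genes before tryptophan synthase differed little between the replicates, and *TRP5* differed by more than 2-fold on the values as deposited. *TRP2* and *TRP3* encode the subunits of anthranilate synthase, and the product of *TRP3* also carries indole-3-glycerol-phosphate synthase. *TRP2* had intensities of 492 and 424, with a mean of 458 ± 48.1 (SD, n = 2). *TRP3* had intensities of 295 and 329, with a mean of 312 ± 23.6 (SD, n = 2). Their log2 ratios of -0.21 and 0.15 had opposite signs, and both were smaller in size than the median size over all named genes, which was 0.49.

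*TRP4*, anthranilate phosphoribosyltransferase, had intensities of 427 and 487, with a mean of 457 ± 41.8 (SD, n = 2). *TRP1*, phosphoribosylanthranilate isomerase, had intensities of 155 and 135, with a mean of 145 ± 13.7 (SD, n = 2). The log2 ratios were 0.19 and -0.19, so that these genes also lay close to equality. *TRP5*, tryptophan synthase, which makes tryptophan from indole-3-glycerol phosphate and serine, had intensities of 1446 and 3267 and a mean of 2357 ± 1288 (SD, n = 2). Its log2 ratio was 1.18, or 2.26-fold, above those of 97.9% of all named genes. Over the 5 genes of the branch the median size of the log2 ratio was 0.19.

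The genes that were higher on replicate 2 by the widest margins, *ARO2*, *TRP5* and *ARO4*, were all in the highest of 10 equal classes of mean value. The median log2 ratio was -0.06 in the lowest class, lay between -0.29 and -0.16 in the next 6 and was 0.004, 0.20 and 0.39 in the top 3. In the highest class 16.4% of 566 genes were higher on replicate 2 by 2-fold or more. Of the 10 genes of aromatic synthesis, 6 were in that class. Within it, the ratio of *ARO2* lay above those of 92.2% of genes, that of *TRP5* above 90.8% and that of *ARO4* above 80.2%. With the median of the class subtracted, the log2 ratios were 0.83 for *ARO2*, 0.79 for *TRP5* and 0.54 for *ARO4*, and none of them was past 2-fold. The same step brought *ARO3* to -1.09, past 2-fold in the lower direction, and changed the sign for *TRP3*, to -0.05, and *TRP4*, to -0.20. *ARO3* was in the class next to the highest, where its ratio lay above those of 17.5% of genes. In that class 15% of genes were lower on replicate 2 by 2-fold or more on the values as deposited. *TRP2* and *ARO1*, also in the highest class, moved to -0.60 and -0.55.

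**Figure D2:**
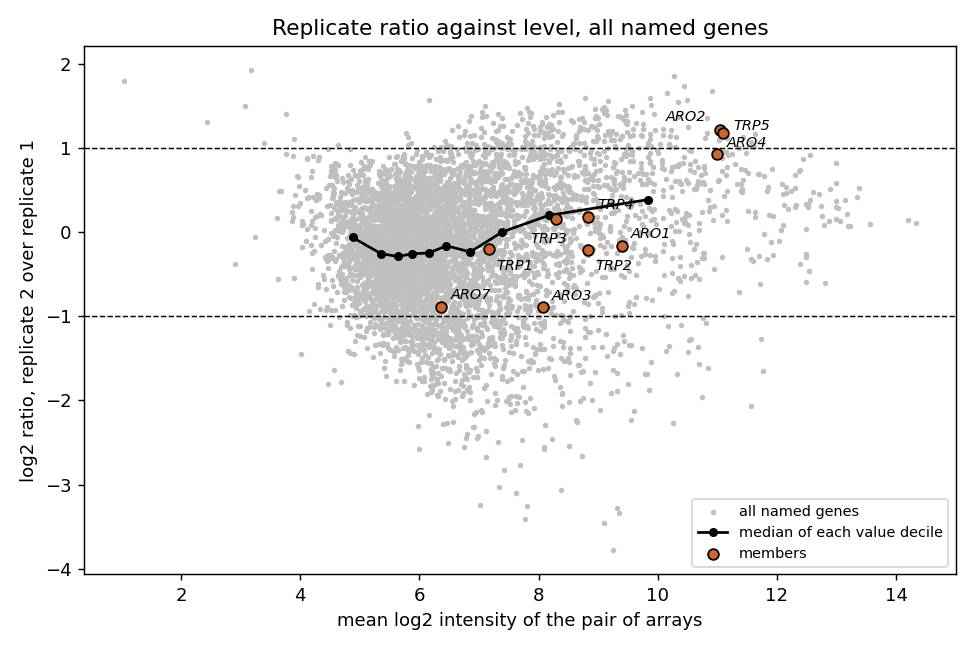
Log2 ratio of replicate 2 over replicate 1 against the mean log2 intensity of the pair, for 5656 named genes (gray) and the 10 genes of aromatic amino acid synthesis (orange). The black line joins the medians of 10 equal classes of mean value and reaches 0.39 in the highest class, where *ARO2*, *TRP5* and *ARO4* lie; dashed lines mark 2-fold.

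Among 18 other genes of aromatic metabolism and its regulation, *GCN4* included, 9 were higher and 9 lower on replicate 2, with a median log2 ratio of -0.015. Of the 18, 4 were past 2-fold, all lower, beside 12.6% of all named genes. *TYR1*, prephenate dehydrogenase of the tyrosine branch, had intensities of 84.3 and 38.1, and *PHA2*, prephenate dehydratase of the phenylalanine branch, had 65.4 and 47.7. Both genes after chorismate mutase were, like *ARO7*, above background only on replicate 1, which had the lower limit, and had lower values on replicate 2. Within their classes of mean value, the ratios of *TYR1*, *PHA2* and *ARO7* lay above those of 7.24%, 36.0% and 20.3% of genes. *TYR1* was among the genes past 2-fold, at a log2 ratio of -1.15 on the values as given. Since the values of *TYR1* and *PHA2* on replicate 1 lay under the limit of replicate 2, no bound on their differences can be given.

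*ARO8*, the main aromatic aminotransferase of synthesis, had intensities of 1675 and 2768. Its log2 ratio was 0.72. The remaining transaminase gene, the decarboxylase gene and their activator were not above background on either array. *ARO9*, the second aminotransferase, had 50.8 and 56.0, *ARO10*, phenylpyruvate decarboxylase, had 22.8 and 31.7, and *ARO80*, their activator, had 34.3 and 30.4.

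*GCN4* had intensities of 3212 on replicate 1 and 1051 on replicate 2, a mean of 2132 ± 1528 (SD, n = 2). It was 3.06-fold lower on replicate 2, with a log2 ratio of -1.61, the same sign as for 5 of the 10 genes of aromatic synthesis, *ARO1*, *ARO3*, *ARO7*, *TRP1* and *TRP2*, and opposite to the other 5. Of its whole class of mean value, 4.06% of genes had a lower ratio. With the class median subtracted from each ratio, 7 of the 10 genes were lower on replicate 2 and 3 were higher. That step, chosen after seeing the data, puts the median of all named genes at 0. About as many of all genes thus fall below 0 as above it. *TRP3* and *TRP4*, whose signs it changed, lay at -0.05 and -0.20. Any relation of these ratios to that of *GCN4* was not tested. The protein was not measured.

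The kynurenine route breaks tryptophan down toward NAD. *BNA4*, kynurenine 3-monooxygenase, had intensities of 272 and 62.7 and was not above background on replicate 2, which makes the decrease at least 2.96-fold. *BNA3*, kynurenine aminotransferase, had 524 and 250, a log2 ratio of -1.07. *BNA2*, the tryptophan dioxygenase of the first step, had 259 and 290, a log2 ratio of 0.16. *BNA1*, *BNA5*, *BNA6* and *BNA7* were within 2-fold, at log2 ratios of -0.20, -0.56, 0.18 and 0.50.

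The permease genes *TAT1*, at 53.1 and 66.6, and *TAT2*, at 201 and 251, each had a log2 ratio of 0.33, and *TAT1* was not above background on either array. *ABZ1* and *ABZ2*, which lead from chorismate to 4-aminobenzoate, had log2 ratios of 0.34 and -0.42, with *ABZ2* above background only on replicate 1.

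**Figure D3:**
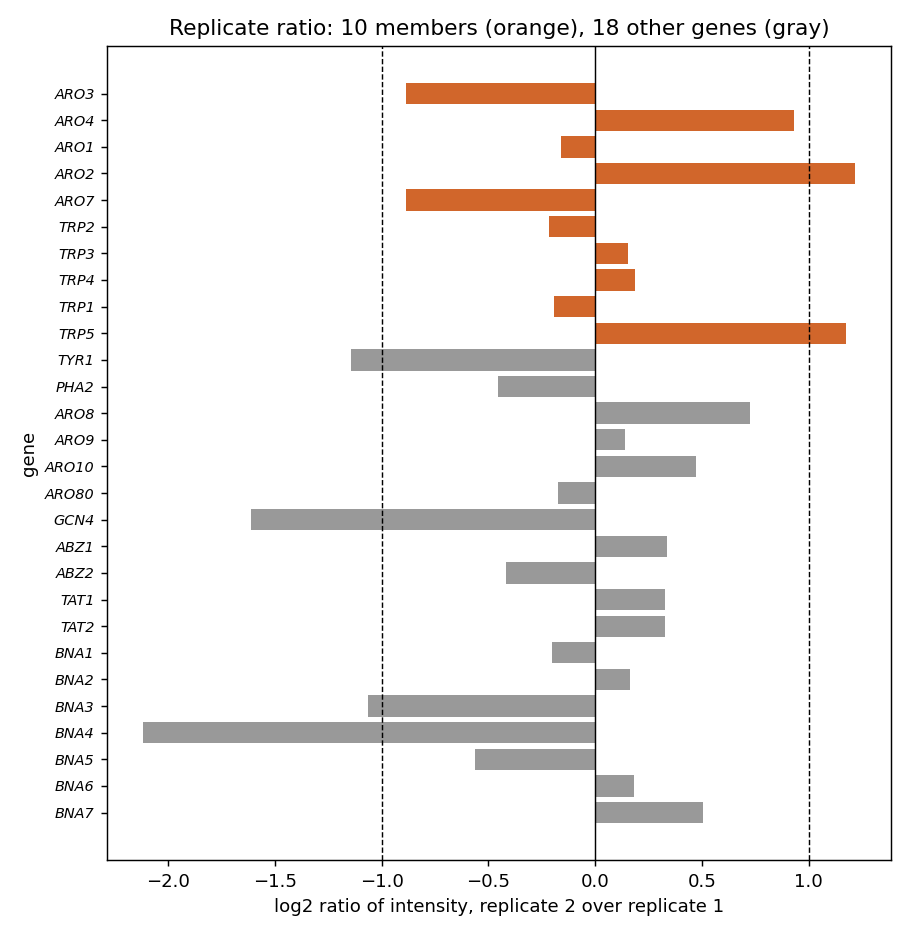
Log2 ratio of intensity, replicate 2 over replicate 1, for the 10 genes of aromatic amino acid synthesis (orange bars). Gray bars show 18 other genes of aromatic metabolism and its regulation, and dashed lines mark 2-fold. Orange bars run from -0.89 (*ARO3*) to 1.22 (*ARO2*), and the gray bars past 2-fold, *TYR1*, *GCN4*, *BNA3* and *BNA4*, all point to lower values on replicate 2.

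The same ratio was taken for other pathways of amino acid synthesis. The median log2 ratio was -0.51 over 7 histidine genes, -0.25 over 9 lysine genes and 0.42 over 11 branched-chain genes. It was -0.002 over the 10 aromatic genes and -0.12 over all named genes. All 11 branched-chain genes were in the top 2 classes of mean value, whose median ratios were 0.20 and 0.39. The other lists also held genes of lower classes, and the medians of the lists were not adjusted for class. The SD of the ratio within a list was 1.02, 0.93 and 0.86, and 0.77 for the aromatic genes. Genes past 2-fold numbered 3 of 7 for histidine, 2 of 9 for lysine and 3 of 11 for branched-chain synthesis, beside 2 of 10 for the aromatic genes. Among all named genes the share was 16.7%, and in the top 2 classes of mean value it was 27.4% and 26.0%. The lysine count holds *LYS14*, at 69.9 and 27.7, which was above background only on replicate 1 and has no bound. No test of these differences was made.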

How the data were processed

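RNA of 2 *sdh3*Δ samples was measured on Yeast Genome S98 arrays, with 9335 probe sets each. The file holds linear intensities as deposited. The tool recorded from the submitters' processing notes is MAS5 (version 5). By the paper's methods, global scaling in Microarray Suite was followed by normalization in dChip. Its Perfect Match model then gave 1 intensity per probe set. Whether the deposited values are those before or after the dChip steps was not checked. Of the probe sets, 60 are controls and 6504 have 1 gene in the array annotation, all found in the R64 gene table, which was used for names only; probe sets with several genes (328) or none (2443) were not used. The 11 probe sets at or below 0 on an array were left out. Where a gene had several plain probe sets, the mean of their log2 values was used, which gave 5656 genes.

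Levels are given per array with mean and SD, and the log2 ratio of replicate 2 over replicate 1 beside that of all named genes. The limit for difference was 2-fold. The number of arrays limits the precision. The ratio calculation was tested on simulated data. Alternatives were median centring, quantile normalization, 50 added to each intensity, values raised to background, and all probe sets of a gene; centring within classes of value was added after seeing the data. The genes named are all 10 genes, the 18 other aromatic genes, *SDH3* and, for its missing bound, *LYS14*. Genes and lists were chosen with earlier results of these data known. Promoter motifs and protein sequences, planned at first, were not analysed here, and reference strain values were not used. Python 3.11.15, numpy 2.4.6, pandas 2.3.3 and matplotlib 3.10.9 were used.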

Additional observations from a re-analysis of the deposited data

How the results depend on the processing

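The ratios of the 10 genes kept their sign under median centring, quantile normalization, 50 added before the logarithm, values raised to background and all probe sets of a gene. Of these, adding 50 cannot change a sign, and taking all probe sets changes nothing where each gene has 1. Raising values to background left the 9 genes above background on both arrays as they were. The median of the 10 ratios stayed between -0.005 and 0.11 under these alternatives. *ARO2* and *TRP5* were past 2-fold under each of these, and with median centring *ARO4* joined them, at 1.05, so that 3 genes were. Among all named genes the share past 2-fold was 6.82% with 50 added and 9.53% with values raised to background, against 16.7% as deposited. It was 16.7% under median centring as well, with 6.58% higher on replicate 2. With each ratio centred on the median of its class of mean value, an alternative chosen after seeing the data, 1 gene was past 2-fold. By that margin 0 genes were higher on replicate 2 and 1, *ARO3*, was lower. Among all named genes 14% were past 2-fold after the same step, with 4% higher and 9.99% lower on replicate 2. The signs for *TRP3* and *TRP4* changed. The median of the 10 ratios was then -0.20. Raising values to background moved *ARO7* to -0.285 and the median ratio of all named genes to 0.48, since the limit of replicate 2 is the higher one. No paired analysis was possible because there is 1 group. With 1 array left out, each level is that of the other array, and no ratio can be given. Signal over background limits what can be read for *ARO7*.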
